A study of Rattus norvegicus with 28 samples.

Results

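The 8 arrays described here are left ventricles of vehicle-treated double transgenic rats (dTGR), set in the order of their Hmox1 level, out of 28 arrays in the series. The arrays were chosen by their treatment label. The order, and the genes that follow it, were chosen from the measured values of those same arrays, so they are given as descriptions with no test. All 28 rats were male and were taken at 7 weeks of age, and each array has its own number in the labels. The vehicle and treated groups carry the same 2 human transgenes, hAGT for angiotensinogen and hREN for renin (dTGR [SD-Tg(hAGT)L1623xTg(hREN)L10J] in the labels), and the labels give their phenotype as HFpEF (hypertension induced). Vehicle dTGR (8 arrays) received the solvent, transcutol, cremophor and water at 10, 20 and 70 parts, by daily gavage from 4 weeks of age. BAY 41-8543 dTGR (12 arrays) received that compound, a stimulator of soluble guanylate cyclase, at 3 mg/kg per day. Non-transgenic Sprague Dawley (SD) rats (8 arrays) are labelled as having no treatment. The labels do not say which rats shared a litter or which arrays a processing day, so p-values measure the spread between these rats, which may be partly technical. The array numbers run in a separate block for each group, and the labels do not say what the blocks stand for. Any effect of these blocks cannot be told apart from the group.

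Hmox1 encodes haem oxygenase 1, the inducible enzyme that splits haem into biliverdin, iron and carbon monoxide. Its transcription is known to be raised by free haem, by oxidants acting through the factor NRF2 with release of the repressor BACH1, and by inflammatory signals. In the heart it is known as a marker of injury and oxidant load. Metallothioneins bind zinc and copper and are known to be induced by metals, glucocorticoids and interleukin 6. Fkbp5, Per1 and Zbtb16 are textbook targets of the glucocorticoid receptor.

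The promoter windows of 3 genes that move with Hmox1 are shown because they differ in what they hold. Mt2A rose with the steepest slope, Mt1f is a second metallothionein that rose with it, and Lrrc3b was among the steepest fallers. Each window runs from 250 bases before to 50 bases after the gene start, 5′ to 3′ on the gene's strand, from RefSeq (build GRCr8). Capitals mark matches, on either strand, to any of 6 motifs. They are the antioxidant response element TGACNNNGC, the metal response element in the forms TGCACNC and TGCGCNC, and the AP-1 site TGANTCA. The others are the E-box CACGTG and AGAACA, a single arm of the full glucocorticoid receptor site.
Mt2A, chr19:10838659-10838958, minus strand: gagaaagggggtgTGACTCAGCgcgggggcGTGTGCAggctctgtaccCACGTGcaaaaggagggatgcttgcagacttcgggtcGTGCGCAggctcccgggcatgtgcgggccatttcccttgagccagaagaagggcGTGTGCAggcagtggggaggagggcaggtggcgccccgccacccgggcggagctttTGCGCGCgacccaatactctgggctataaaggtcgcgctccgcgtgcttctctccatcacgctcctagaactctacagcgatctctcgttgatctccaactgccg
Mt1f, chrX:37814735-37815034, minus strand: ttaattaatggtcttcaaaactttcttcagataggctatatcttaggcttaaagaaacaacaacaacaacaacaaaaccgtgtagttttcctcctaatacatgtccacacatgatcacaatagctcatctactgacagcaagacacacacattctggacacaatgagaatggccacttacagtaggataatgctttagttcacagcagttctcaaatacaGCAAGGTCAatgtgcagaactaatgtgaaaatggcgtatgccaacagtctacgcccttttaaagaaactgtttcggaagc
Lrrc3b, chr15:12404059-12404358, plus strand: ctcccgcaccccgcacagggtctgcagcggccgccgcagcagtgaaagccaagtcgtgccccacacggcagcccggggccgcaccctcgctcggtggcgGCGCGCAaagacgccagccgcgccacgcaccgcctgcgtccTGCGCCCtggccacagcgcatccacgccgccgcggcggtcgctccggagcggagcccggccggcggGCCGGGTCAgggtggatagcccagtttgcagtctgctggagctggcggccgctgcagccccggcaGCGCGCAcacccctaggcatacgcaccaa
The Mt2A window held 4 metal response element matches, 2 of each form, 1 E-box, and 1 antioxidant element whose letters overlap the AP-1 match. The Mt1f window held 1 antioxidant element match and 0 metal response elements in these forms. This Mt1f entry lies on chromosome X and the Mt2A entry on chromosome 19. Whether the Mt1f probe reads RNA from this entry alone was not checked. The Lrrc3b window held 3 matches to the metal response form TGCGCNC and 1 to the antioxidant element, although that gene fell. Over the named genes with an entry, the antioxidant element was found in 4 of 20 risers and 2 of 13 fallers, against 12.1% of 33469 promoter windows. The single arm of the glucocorticoid receptor site, AGAACA, was found in 6 of 20 risers and 3 of 13 fallers, against 20.7% of all windows. Full sites were not searched for. The metal response forms TGCACNC and TGCGCNC were each found in 3 of 20 risers and 3 of 13 fallers, against 12.2% and 14.1%. The AP-1 site was in 1 riser and 0 fallers (7.3% of all windows), and the E-box in 2 risers and 1 faller (6.4%). A match is a description of letters in this window and says nothing of binding.

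Hmox1 did not form an even gradient over the vehicle hearts. In order of level, replicates 7, 6, 3, 2, 8, 1, 4 and 5 had Hmox1 log2 intensities of 8.78, 8.93, 10.81, 11.33, 11.46, 11.83, 12.10 and 12.11. Replicates 7 and 6 lay inside the range of the BAY 41-8543 arrays, a gap of 1.88 followed, and the other 6 lay above every BAY 41-8543 and SD array. Replicates 7 and 6 were also below the lowest SD array. The BAY 41-8543 arrays had Hmox1 levels of 8.73 to 9.60 (median 9.05) and the SD arrays 9.05 to 9.57 (median 9.28). The standard deviation of Hmox1 was 1.34 in vehicle, 0.24 in BAY 41-8543 and 0.18 in SD arrays. Because the vehicle arrays fall into 2 clusters on this scale, the correlation of each named gene is given over all 8 arrays and again over the 6 without replicates 6 and 7.

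**Figure D1:**
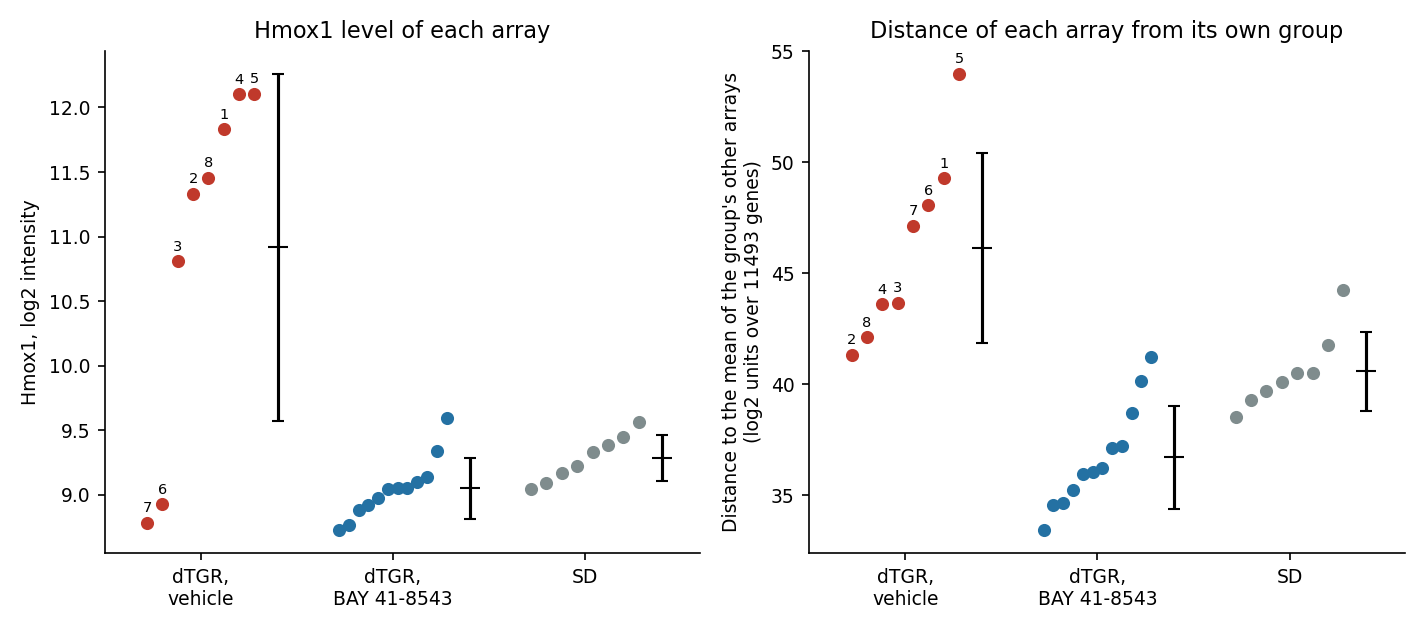
Left, the Hmox1 log2 intensity of each array, sorted within its group, and right, the Euclidean distance of each array from the mean of the other arrays of its group over 11493 genes in log2 units. Points are arrays, numbers are vehicle replicates, and black marks are the mean and standard deviation. Vehicle replicates 7 and 6 sit with the BAY 41-8543 arrays for Hmox1, and all vehicle arrays stand farther from their own group than the BAY 41-8543 arrays do from theirs, while vehicle and SD distances overlap.

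Of 11492 other genes, 471 had a Pearson r with Hmox1 of at least 0.8 over the 8 vehicle arrays and 465 had one of -0.8 or below, which is 4.1% and 4.05%. A gene is said here to rise or fall with Hmox1 at these limits. These shares are the background for the list counts, and for lists of the sizes used here a count of 0 or 1 is near it. Just inside and outside them were Pvr (r = 0.80017) and Angptl4 (0.79994) on the rising side, and Tspan18 (-0.80021) and Pacsin2 (-0.79954) on the falling side. Over the 6 arrays without replicates 6 and 7, 409 genes (3.56%) and 418 genes (3.64%) were past the same limits. A fixed limit on r is easier to pass by chance over 6 arrays than over 8, so these shares are not on 1 scale. Of the 471 risers 95.3% kept a positive r and 131 stayed past 0.8, and of the 465 fallers 97.0% kept a negative r and 107 stayed past -0.8. Over all 11492 genes 69.8% kept their sign, and 727 were past the limit over 6 arrays with that sign. The 6 arrays are part of the 8 that chose the followers, so a kept sign is partly built in. All points share the 8 arrays and their normalization, so these counts describe these hearts only. In whole-tissue RNA, fewer cells of a type and less RNA per cell cannot be told apart.

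Array by array, the followers left the BAY 41-8543 range in nearly the order of Hmox1. They were chosen for that order on these same 8 arrays, so this pattern is largely built in. Of the 471 risers, 7, 5, 161, 289, 312, 332, 364 and 361 lay above the highest of the 12 BAY 41-8543 arrays in replicates 7, 6, 3, 2, 8, 1, 4 and 5. Of the 465 fallers, 1, 8, 114, 258, 279, 301, 331 and 350 lay below the lowest BAY 41-8543 array in the same order. Over all genes the share above the BAY 41-8543 range was 6.13% to 19.3% in the vehicle arrays, and the share below it was 6.01% to 20.2%. By the same choice, risers tend to be low and fallers high in replicates 7 and 6, the lowest in Hmox1. A higher share than all genes past the other side of the range is thus also partly built in. In replicates 7 and 6, 94 and 64 of the risers lay below the lowest BAY 41-8543 array (20.0% and 13.6%, beside 7.45% and 6.01% of all genes). Of the fallers 75 and 49 lay above the highest (16.1% and 10.5%, beside 7.40% and 6.13%). Replicates 7 and 6 were also the nearest to the BAY 41-8543 centre, at distances of 36.1 and 35.1, where the 12 BAY 41-8543 arrays lie 33.4 to 41.3 from the mean of their own others. Replicate 3 followed at 41.9 and replicate 5 was farthest at 65.7.

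**Figure D2:**
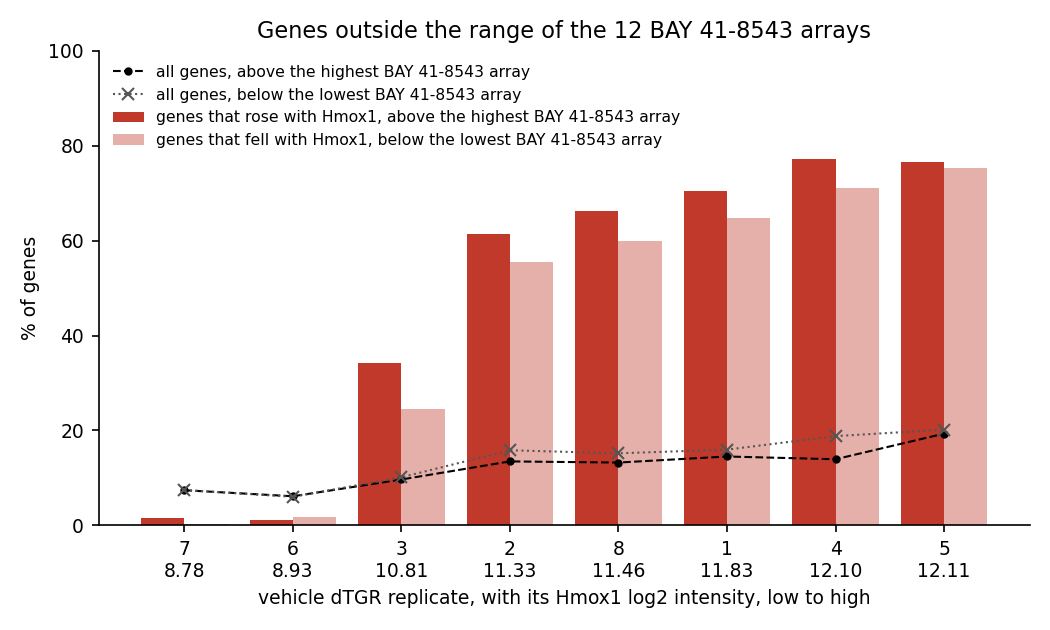
Share of genes outside the range of the 12 BAY 41-8543 arrays in each vehicle replicate, ordered by Hmox1. Bars are the 471 genes that rose with Hmox1 (above the range) and the 465 that fell with it (below the range). Lines give the same shares over all 11492 genes. The genes of the bars were chosen by their order in these same vehicle arrays. Replicates 7 and 6 have under 10 such genes in each set, and replicate 5 has 361 and 350.

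The metallothionein gene Mt2A had the steepest rise of all risers. Along the order of Hmox1, Mt2A had log2 intensities of 6.66, 8.25, 8.98, 11.09, 11.80, 12.40, 12.11 and 13.38 in the vehicle arrays, against 6.38 to 8.41 in BAY 41-8543 and 5.97 to 7.24 in SD arrays. The highest vehicle heart was 106-fold above the lowest, replicates 7 and 6 lay inside the BAY 41-8543 range, and the other 6 were above it. Mt2A had r = 0.94 with Hmox1 and 0.93 over the 6 arrays, with a slope of 1.65 log2 units per log2 unit of Hmox1. Mt1f, with a slope of 1.08, ran from 8.66 to 12.94 (median 11.51) in vehicle arrays, against 8.16 to 9.31 in BAY 41-8543 and 8.28 to 9.29 in SD arrays (r = 0.93, and 0.88 over 6). The 3 other measured genes of the metallothionein and zinc list, among them the zinc exporter Slc30a1 (r = -0.44, and -0.82 over 6), did not pass the limits, and the list median r was 0.24 (all genes, -0.06). Probes of Mt2A and Mt1f were not checked for cross-hybridization within the family.

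Glucocorticoid targets had the highest median likeness to Hmox1 among the lists examined. Of the 8 measured members 5 rose and 0 fell, with a median r of 0.90 beside -0.06 for all genes. Fkbp5, a cochaperone of the glucocorticoid receptor, had levels of 9.79 to 12.76 (median 12.38) in vehicle arrays, against 9.57 to 10.77 in BAY 41-8543 and 9.27 to 10.28 in SD arrays. Per1, a circadian repressor that glucocorticoids also induce, had 8.61 to 12.34 (median 11.46), against 9.03 to 10.75 and 9.13 to 10.69. The transcription factor Zbtb16 had 9.83 to 13.37 (median 12.78), against 9.87 to 11.74 and 10.70 to 11.82. In each of these 3 genes replicates 6 and 7 were the 2 lowest vehicle arrays and the other 6 lay above the highest BAY 41-8543 array. With all 8 arrays r was 0.97 for Fkbp5, 0.96 for Per1 and 0.96 for Zbtb16. Over those 6 arrays r was 0.81 for Fkbp5, 0.59 for Per1 and 0.53 for Zbtb16, and the list median dropped to 0.40 with 1 of 8 members past the limit.

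Genes of interleukin 6 signalling rose in part. Of 18 measured members of the interleukin 6 and acute phase list 5 rose and 0 fell (median r 0.65, and 0.60 over 6 arrays). Cebpb, a transcription factor of the acute phase response, had 8.39 to 10.69 (median 9.77) in vehicle arrays, against 7.92 to 8.59 in BAY 41-8543 and 7.78 to 8.83 in SD arrays. Its r of 0.97 held at 0.96 without replicates 6 and 7. The oncostatin M receptor Osmr had 10.92 to 12.68 (median 12.19), against 10.43 to 11.28 and 10.05 to 10.59 (r = 0.95, and 0.85 over 6). All vehicle arrays lay above the highest SD array for Osmr, and 6 of 8 above the highest BAY 41-8543 array. Stat3, the factor that carries the signal of this receptor family, had 13.30 to 14.70 (median 13.95), against 13.23 to 13.54 and 12.91 to 13.19 (r = 0.86, and 0.87 over 6). Reg3b, a secreted lectin known as a target of this pathway in heart muscle, had 9.49 to 15.02 (median 12.10), against 8.13 to 12.13 and 5.23 to 6.33 (r = 0.85, and 0.63 over 6). For Stat3 and Reg3b every BAY 41-8543 array lay above every SD array.

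In the redox list to which Hmox1 belongs, 1 of 19 other measured members rose and 0 fell, which is near the background. The median r was 0.35, and 14 of the 19 had a positive r, beside 5259 of 11492 genes. The mean level of the list was 11.72 to 12.09 in vehicle arrays and had r = 0.77 with Hmox1 (0.78 over 6). In the test between vehicle and BAY 41-8543, 5 of the 19 were higher in vehicle and 0 lower, beside 4.42% and 5.37% of all genes. The riser was Bach1, the repressor of Hmox1, at 10.13 to 11.15 (median 10.58) in vehicle, against 10.09 to 10.46 in BAY 41-8543 and 10.01 to 10.34 in SD arrays (r = 0.85, and 0.76 over 6). Nqo1, a standard NRF2 target, had 10.13 to 11.12 (median 10.48), against 9.89 to 10.58 and 10.09 to 10.83, with r = 0.77 (0.54 over 6). The vehicle range of Nqo1 overlapped both other groups. The glutathione peroxidase Gpx1 had r = 0.79 (0.56 over 6) within a range of only 13.61 to 13.89. Of 16 heat shock proteins and cochaperones 1 rose, the small heat shock protein Hspb7 (r = 0.93, and 0.45 over 6), with a list median of 0.37.

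Among 18 genes of the integrated stress response, the program that slows translation under amino acid or unfolded protein stress, 4 rose and 1 fell (median r 0.50). Eif4ebp1, an inhibitor of cap-dependent translation, had 11.90 to 13.23 (median 12.86) in vehicle, against 11.86 to 12.17 in BAY 41-8543 and 11.82 to 12.26 in SD arrays (r = 0.94, and 0.87 over 6). Mthfd2, a mitochondrial folate enzyme, had 8.17 to 10.42 (median 9.76), against 7.91 to 9.05 and 7.44 to 8.34 (r = 0.88, and 0.73 over 6). The faller was the lipoprotein receptor Vldlr, at 11.86 to 12.61 (median 12.17), against 12.49 to 12.74 and 12.46 to 12.71 (r = -0.94 over both 8 and 6 arrays). Its range in vehicle hearts was narrow, yet 6 of 8 lay below the lowest BAY 41-8543 array. Of 16 hypoxia and glycolysis genes 4 rose and 1 fell (median r 0.41). Bnip3, a mitophagy receptor induced by hypoxia, had 13.29 to 14.34 (median 14.05) in vehicle, against 12.90 to 13.55 and 12.99 to 13.27, with r = 0.94 and 0.92 over 6 arrays. Ndrg1, another hypoxia target, had r = 0.92 (0.82 over 6) and the histone demethylase Kdm3a r = 0.83 (0.83 over 6).

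All 20 measured immediate early genes had a positive r, beside 5259 of 11492 genes. Of the 20, 3 passed the limit (median r 0.65). Junb had 10.54 to 13.77 (median 12.32) in vehicle, against 10.36 to 10.87 in BAY 41-8543 and 9.62 to 10.54 in SD arrays (r = 0.84, and 0.75 over 6). Myc had 8.50 to 12.23 (median 10.43), against 8.21 to 8.75 and 7.13 to 8.54 (r = 0.86, and 0.64 over 6), and Maff, a small partner of NRF2 and BACH1, had r = 0.89 (0.77 over 6). The highest vehicle array for Junb and Myc was replicate 1, which was sixth in Hmox1. Without replicates 6 and 7 the list median was 0.41 and 0 of 20 were past the limit.

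Fuel genes were mixed. Of 14 PPAR alpha and fasting targets 2 rose and 0 fell (median r 0.30). Pdk4, the kinase that shuts pyruvate dehydrogenase, had 12.86 to 15.43 (median 14.79) in vehicle, against 12.16 to 13.59 in BAY 41-8543 and 12.60 to 13.86 in SD arrays (r = 0.94, and 0.81 over 6). Cyp4b1 had r = 0.89 (0.71 over 6). Of 24 fatty acid oxidation genes 2 rose, the fatty acid transporter Cd36 (r = 0.97, and 0.82 over 6) and the lipase Lpl (r = 0.84, and 0.62 over 6), and 1 fell, the acyl-CoA synthetase Acsl1 (r = -0.86, and -0.55 over 6). None of 33 oxidative phosphorylation and 13 tricarboxylic acid cycle genes passed the limit either way, with medians of 0.06 and 0.01.

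Of the muscle atrophy and mTOR brake list, 2 of 10 rose and 1 fell (median r 0.53). The risers were the transcription factor Foxo3 (r = 0.91, and 0.49 over 6) and the lysosomal protease Ctsl (r = 0.86, and 0.68 over 6). The faller was Ddit4l, a muscle inhibitor of mTOR, at 6.14 to 9.76 (median 8.04) in vehicle, against 8.92 to 9.81 in BAY 41-8543 and 9.89 to 10.42 in SD arrays (r = -0.85, and -0.65 over 6). Of 9 p53 and damage genes 2 rose, Pmaip1 (r = 0.90, and 0.60 over 6) and Tp53inp1 (r = 0.87, and 0.86 over 6), with a list median of 0.50. Of 8 renin-angiotensin genes 2 rose, and the leading one was Ace, the angiotensin converting enzyme. Ace had 10.03 to 12.18 (median 11.33) in vehicle, against 9.68 to 10.54 and 9.43 to 10.35, with r = 0.91 and 0.93 over 6 arrays. The list median was 0.05.

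Among all genes with a vehicle standard deviation of at least 0.5, the closest likeness was that of Hyal2, a hyaluronidase of the cell surface (r = 0.98, and 0.86 over 6). Its levels were 10.51 to 12.29 (median 11.94) in vehicle, against 10.29 to 11.10 in BAY 41-8543 and 10.34 to 10.92 in SD arrays. Next in r were Cxcr5, Tmem63c, Sema6b, Acer2 and Slc10a6, with r of 0.98 in each, and 0.86, 0.94, 0.81, 0.94 and 0.79 over 6 arrays. Sik1, a salt-inducible kinase, followed Hmox1 in exact rank order, from 8.95 to 12.02 (median 11.13), against 9.29 to 10.11 and 9.12 to 9.92 (r = 0.97, and 0.95 over 6). Tinagl1, a matricellular protein, had 11.54 to 14.38 (median 13.78), against 11.51 to 11.96 and 11.48 to 12.16 (r = 0.97, and 0.93 over 6). The purine oxidase Xdh had 11.62 to 13.74 (median 13.30), against 11.43 to 12.04 and 11.73 to 12.36 (r = 0.97, and 0.91 over 6). For Hyal2, Tinagl1 and Xdh only replicates 6 and 7 lay within the BAY 41-8543 range. For Sik1 replicate 6 lay within it and replicate 7 below it.

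Secreted peptides and a stretch sensor were among the steepest risers. Trh, the precursor of thyrotropin-releasing hormone, had 5.87 to 10.39 (median 8.93) in vehicle, against 5.17 to 7.26 in BAY 41-8543 and 4.36 to 6.56 in SD arrays (r = 0.93, and 0.90 over 6). Galanin (Gal) had 5.05, 5.65 and 6.03 in replicates 6, 7 and 3 and 8.19 or more in the other 5, against 4.12 to 5.82 and 4.55 to 5.81. Its r was 0.80 and 0.45 over 6 arrays, and the low values lie near the filter level of 5.65, so no fold is given. Ankrd2, an ankyrin repeat protein of the sarcomere, had 7.25, 8.14 and 8.56 in replicates 7, 6 and 3 and 11.31 to 12.44 in the other 5, against 6.77 to 9.32 and 6.17 to 7.81. Gal and Ankrd2 thus split the vehicle hearts into 3 and 5, not into 2 and 6, with replicate 3 on the low side (r of Ankrd2 0.88, and 0.61 over 6).

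**Figure D3:**
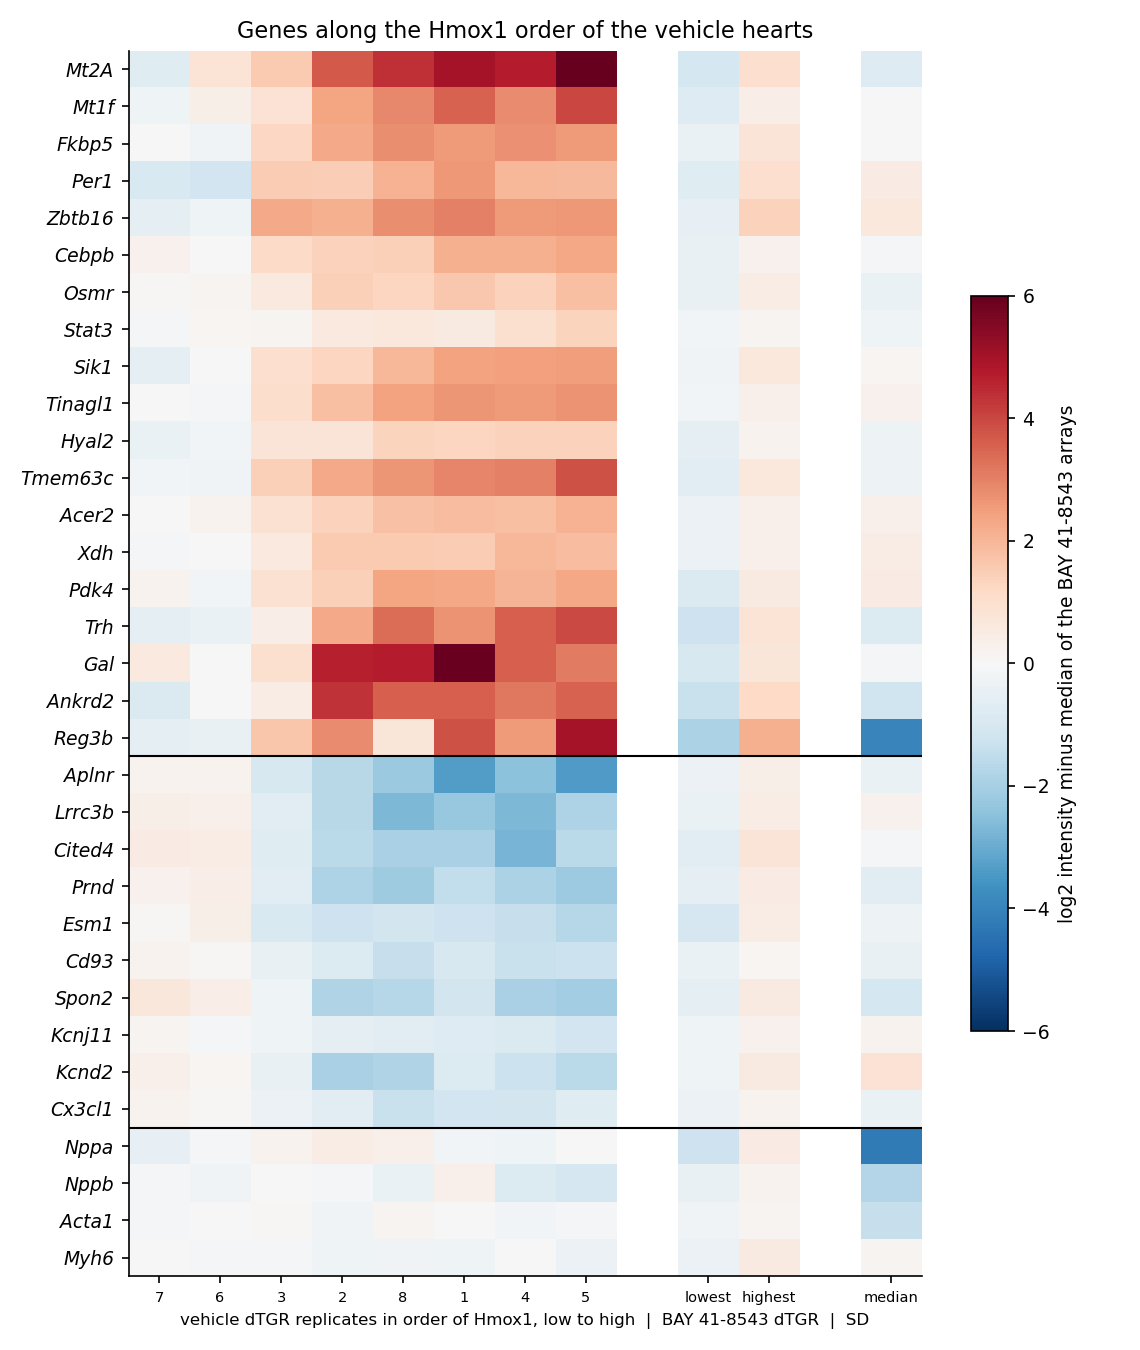
Log2 intensity minus the median of the 12 BAY 41-8543 arrays for 33 genes (rows), with the 8 vehicle replicates in order of Hmox1 from left to right, then the lowest and highest BAY 41-8543 array and the SD median. Black lines part the genes that rose, those that fell, and 4 that did neither. Replicates 7 and 6 resemble the BAY 41-8543 columns in nearly every row, and replicate 3 is paler than the 5 arrays to its right.

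Aplnr had the steepest fall of all fallers. This gene, which encodes the G protein-coupled receptor of the vasodilator and inotropic peptide apelin, had 13.45, 13.45, 12.31, 11.59, 11.02, 9.88, 10.78 and 9.84 in the vehicle arrays along the order, against 12.87 to 13.61 in BAY 41-8543 and 12.46 to 13.38 in SD arrays. The lowest vehicle heart was 12.2-fold below the highest, and 6 of 8 were below every BAY 41-8543 array. Aplnr had r = -0.94 and -0.88 over 6 arrays. Apln, its ligand, had 9.31 to 11.40 (median 9.94), against 10.65 to 11.71 and 10.83 to 11.67 (r = -0.91, and -0.60 over 6). Both ends of this pathway were within the BAY 41-8543 range in replicates 6 and 7. The list of vascular stress signals that holds them had 2 of 12 rising, Gal and the angiopoietin receptor Tek (r = 0.84, and 0.37 over 6), and 2 falling, Aplnr and Apln, with a median r of -0.01.

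Other fallers included genes known from endothelium. Esm1, an endothelial proteoglycan, had 6.58 to 8.65 (median 7.11) in vehicle, against 7.27 to 8.73 in BAY 41-8543 and 7.43 to 8.49 in SD arrays (r = -0.98, and -0.84 over 6). Cd93, an endothelial lectin-like receptor, had 10.61 to 12.20 (median 11.14), against 11.59 to 12.14 and 11.27 to 11.83 (r = -0.94, and -0.79 over 6). Replicates 6 and 7 had the highest levels of both genes. Sox4, a transcription factor, had r = -0.95 (-0.66 over 6), and Prnd, a prion-like protein of vessels, r = -0.95 (-0.71 over 6). The transcriptional coregulator Cited4 had 7.90 to 11.16 (median 9.07), against 10.00 to 11.45 and 9.86 to 11.33 (r = -0.95, and -0.77 over 6). Lrrc3b had 8.28 to 11.35 (median 9.21), against 10.59 to 11.42 and 10.90 to 11.52 (r = -0.93, and -0.72 over 6). In Cd93, Cited4 and Lrrc3b 6 of 8 vehicle hearts were below the lowest BAY 41-8543 array. The endothelial marker list itself went both ways, with 3 of 10 rising and 2 falling (median r 0.63). Its risers included Flt1, a receptor of vascular endothelial growth factor, at 12.11 to 13.12 (median 12.92), against 12.07 to 12.45 and 12.29 to 12.65 (r = 0.99, and 0.94 over 6), and the adhesion molecule Esam (r = 0.92, and 0.87 over 6). The receptor Tie1 fell (r = -0.86, and -0.78 over 6). Mean levels of the list were 11.72 to 11.95 in vehicle, 11.62 to 11.85 in BAY 41-8543 and 11.50 to 11.80 in SD arrays, so its groups overlapped. Within the vehicle arrays that mean had r = 0.93 with Hmox1 (0.70 over 6), and its part in the followers was not tested.

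Ion channels fell or did not pass. Of 18 calcium handling and ion channel genes 5 fell and 0 rose (median r -0.51, and -0.43 over 6). Kcnj11, the pore of the ATP-sensitive potassium channel, fell in exact rank order of Hmox1, with 11.11, 10.87, 10.69, 10.38, 10.32, 10.17, 10.10 and 9.79. Its BAY 41-8543 levels were 10.69 to 11.23 and its SD levels 10.63 to 11.68, and r stayed at -0.94 over 6 arrays. The transient outward channel gene Kcnd2 had 8.72 to 10.98 (median 9.63), against 10.44 to 11.22 and 11.34 to 11.83 (r = -0.83, and -0.32 over 6). Kcnj3, part of the muscarinic potassium channel, had r = -0.92 (-0.71 over 6).

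Of 16 cytokine, chemokine and adhesion genes 0 rose and 3 fell, beside 4.1% and 4.05% of all genes, while the list median was 0.43. The fallers were the membrane-bound chemokine Cx3cl1 at 10.30 to 11.85 (median 10.91), against 11.27 to 11.83 in BAY 41-8543 and 10.88 to 11.46 in SD arrays (r = -0.90, and -0.56 over 6), with Cxcl10 (r = -0.86, and -0.29 over 6) and Tnf (r = -0.83, and -0.53 over 6). Of 17 nitric oxide and cyclic GMP genes Nos2, the inducible nitric oxide synthase, fell (r = -0.88, and -0.41 over 6) and Gch1, which makes its cofactor, rose (r = 0.86, and 0.85 over 6), with a list median of -0.55. The subunits of soluble guanylate cyclase, Gucy1a1 (r = -0.30, and -0.55 over 6) and Gucy1b1 (r = -0.56, and -0.42 over 6), did not pass the limit.

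Nppa, Nppb and Acta1, marker genes of load on the heart muscle, did not pass the limits. Nppa, the atrial natriuretic peptide gene, had 15.30 to 16.20 (median 15.70) in vehicle, against 14.55 to 16.26 in BAY 41-8543 and 9.92 to 14.95 in SD arrays, with r = 0.37 and -0.74 over 6. Nppb, the gene of brain natriuretic peptide, had 14.30 to 15.62 (median 15.17), against 14.87 to 15.49 and 12.21 to 14.47, with r = -0.38 (-0.60 over 6). Skeletal actin Acta1 had 16.39 to 16.75 (median 16.54), against 16.39 to 16.76 and 14.57 to 15.93, with r = 0.01 (-0.37 over 6). All vehicle arrays, replicates 6 and 7 included, were thus above the highest SD array for Nppa and Acta1. For Nppb, replicate 5 (14.30) was inside the SD range and the other 7 vehicle arrays were above it, while replicates 4 and 5, the highest in Hmox1, lay below the BAY 41-8543 range. Ankrd1 (r = -0.10, and -0.64 over 6) and Myh6 (r = -0.64, and -0.27 over 6) did not pass the limit. Of the 12 measured hypertrophy and ankyrin repeat genes 2 rose, Ankrd2 and Csrp3 (r = 0.89, and 0.25 over 6), and the list median of 0.37 became -0.58 without replicates 6 and 7. None of 26 matrix genes passed (median -0.05), and Ccn2, a fibrosis mediator, had r = -0.40 (-0.35 over 6). Of 18 cell cycle genes 0 rose and 1 fell, the mitotic kinase Cdk1 (r = -0.89, and -0.67 over 6), with a list median of -0.41.

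**Figure D4:**
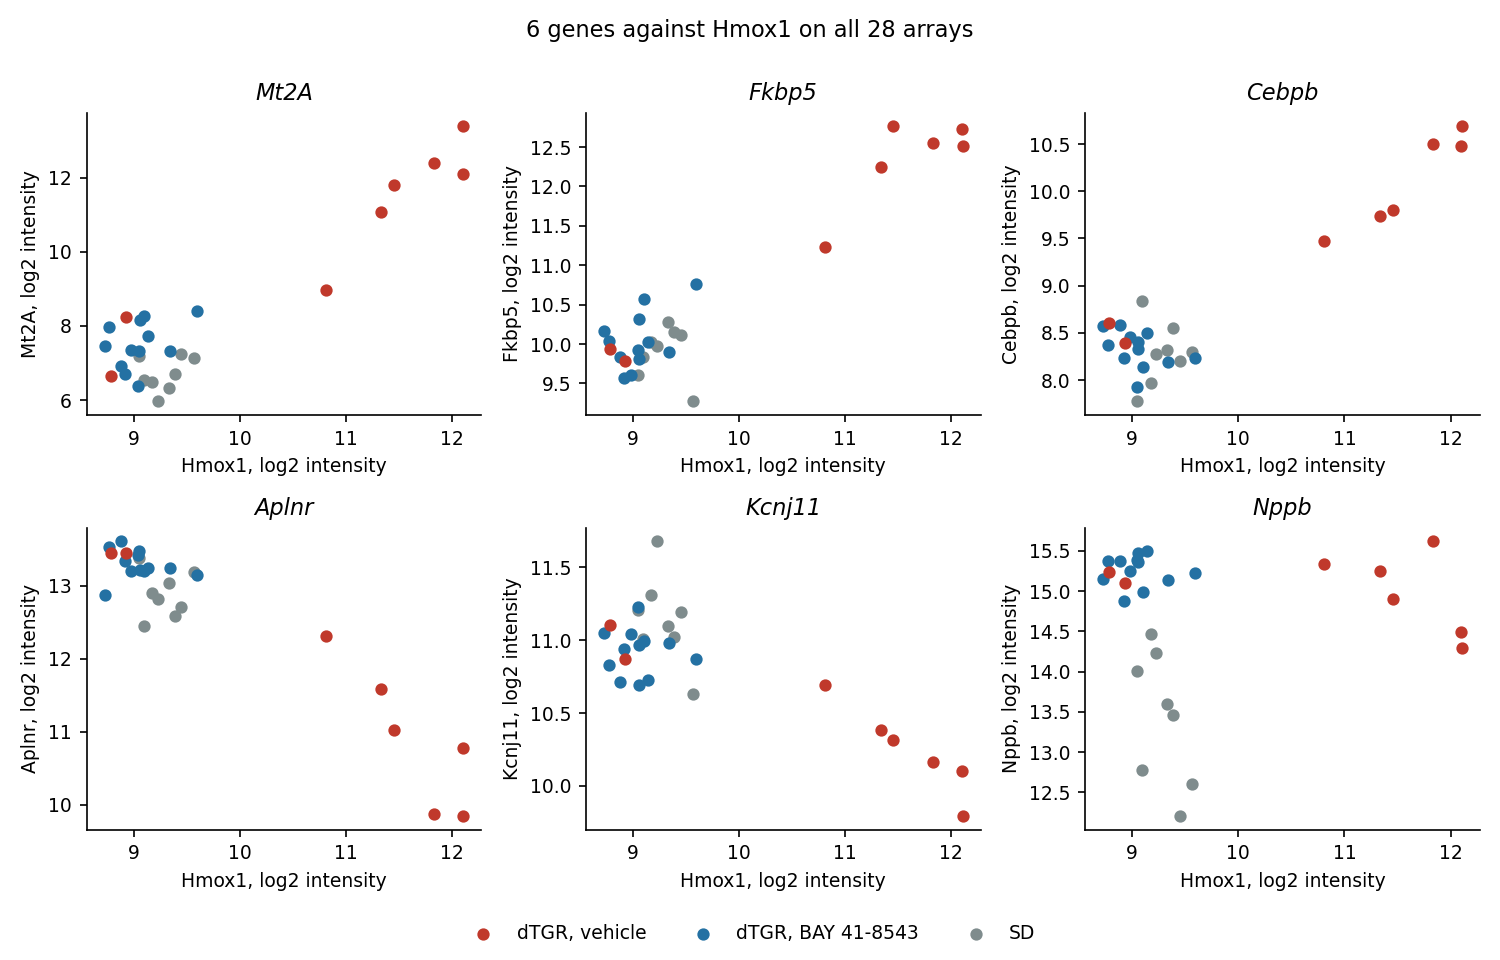
Log2 intensity of 6 genes against the Hmox1 log2 intensity on all 28 arrays, one point per array, coloured by group. Mt2A, Fkbp5 and Cebpb climb and Aplnr and Kcnj11 decline over the 6 vehicle arrays right of 10.8, while 2 vehicle arrays lie among the BAY 41-8543 and SD points. Nppb does not climb with Hmox1 in the vehicle arrays (r = -0.38), and its SD points lie below all dTGR points except vehicle replicate 5.

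Markers of other cell types were examined for the same arrays. None of 9 cardiomyocyte markers passed the limit, and their mean level was 15.73 to 15.84 in vehicle, 15.74 to 15.87 in BAY 41-8543 and 15.79 to 15.88 in SD arrays. Of 8 neutrophil markers 2 rose and 0 fell (median r 0.69, and 0.72 over 6), and their mean level was 6.81 to 8.51 in vehicle, against 6.57 to 7.13 and 6.45 to 7.19. The risers were Cxcr2 (4.67 to 7.77 in vehicle, against 4.32 to 6.44 and 5.41 to 6.77) and Mmp8 (5.87 to 8.94, against 5.59 to 6.68 and 5.74 to 6.96). Low Cxcr2 values lie under the filter level of 5.65. Of 18 monocyte and macrophage markers 3 rose and 1 fell (median r 0.03), among them the complement genes C1qb (r = 0.90, and 0.91 over 6) and C1qc (r = 0.93, and 0.77 over 6). Of 6 blood markers 1 rose, Hbb-b1 (r = 0.87, and 0.38 over 6), and their mean level was 8.60 to 9.91 in vehicle, 8.27 to 9.79 in BAY 41-8543 and 9.34 to 10.59 in SD arrays. None of 11 fibroblast and 8 mesothelial markers passed. The smooth muscle list had 2 of 7 rising, the lymphoid list 1 of 15 falling, the atrial list 1 of 7 falling, the adipocyte list 1 of 6 falling, the skeletal muscle list 1 of 6 rising, and the Schwann cell list 1 of 6 each way. The part of neutrophils, blood or other cells in the followers was not tested.

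**Figure D5:**
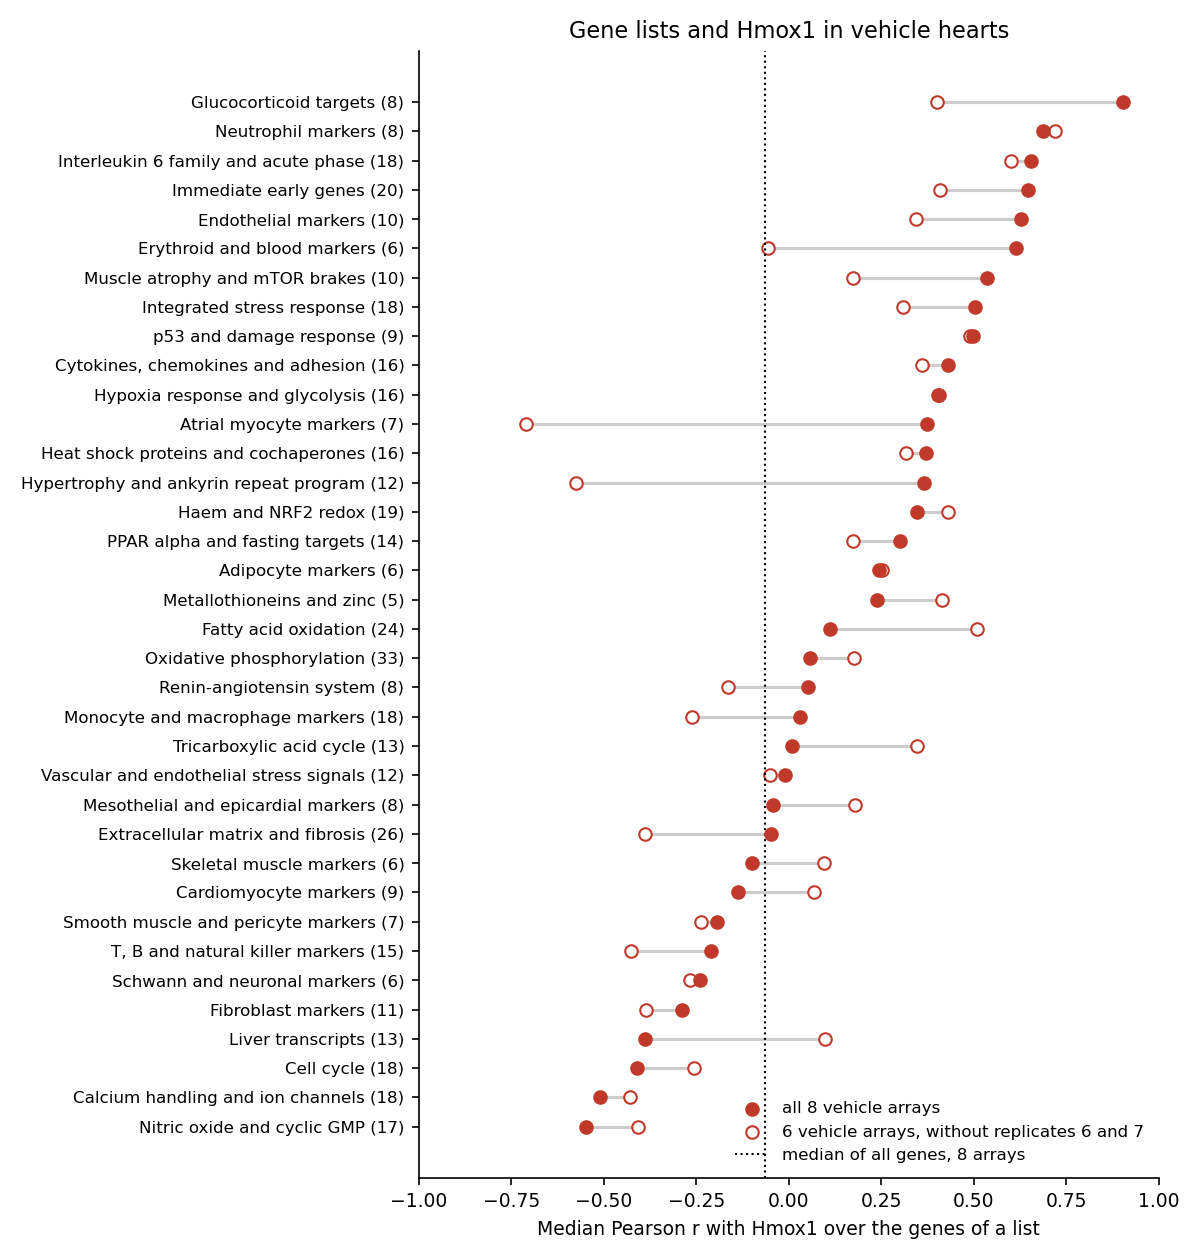
Median Pearson r with Hmox1 over the measured genes of each list (number in brackets) in the vehicle arrays. Filled points use all 8 arrays, open points the 6 without replicates 6 and 7, and the dotted line is the median of all genes (-0.06). Glucocorticoid targets are highest at 0.90 and drop to 0.40, and the hypertrophy list has 0.37 with all 8 arrays and -0.58 with 6.

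Vehicle hearts lay farther from one another than treated hearts did. Each vehicle array lay 46.2 ± 4.28 log2 units from the mean of its group's other arrays (standard deviation, n = 8), against 36.7 ± 2.33 for BAY 41-8543 (standard deviation, n = 12) and 40.6 ± 1.76 for SD rats (standard deviation, n = 8). All 8 vehicle distances (41.3 to 54.0) exceeded all 12 of BAY 41-8543 (33.4 to 41.3), and a two-sided exact permutation test gave p = 8e-06, the smallest these groups allow. Against SD the exact permutation test gave p = 0.00249. BAY 41-8543 arrays were in turn closer to their own group than SD arrays (p = 0.00121, exact permutation test). These comparisons rest on absolute distance, and a group of fewer arrays has a noisier mean, which adds a little to the vehicle and SD distances. The separation from BAY 41-8543 was narrow at its edge, with 41.34 in vehicle replicate 2 and 41.25 in BAY 41-8543 replicate 1. That the p-value is the smallest possible rests on this edge, and the distances were not corrected for group size. On a correlation distance the mean difference was -0.0853 between vehicle and BAY 41-8543 (p = 0.327, exact permutation test) and 0.153 between vehicle and SD (p = 0.189). In a principal component analysis run within each group, component 1 took 30.1% of the vehicle variance, 13.1% of the BAY 41-8543 variance and 20.0% of the SD variance. More arrays give more components to share the variance, so the BAY 41-8543 share (n = 12) is not on the scale of the others (n = 8). In the vehicle arrays component 1 had r = 0.95 with Hmox1.

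Gene by gene, limma on each array's absolute deviation from its group mean called 584 genes more spread in vehicle than in BAY 41-8543 and 6 less spread, at an adjusted p under 0.05. That is 5.08% and 0.0522% of 11493 genes, or 5.13% either way. With deviations from the group median the counts were 175 and 0, and without replicates 6 and 7 they were 232 and 1. Leaving out replicate 6 alone left 384 calls in all. Against SD, 323 genes were more and 25 less spread in vehicle (2.81% and 0.218%, or 3.03% either way), which became 91 and 3 with the group median. Leaving out replicate 6 or 7 gave 223 and 215 calls in all against SD. Between BAY 41-8543 and SD, 1 gene was more and 17 were less spread (0.0087% and 0.148%, or 0.157% either way).

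Among the genes with the lowest spread p, Fads2, a fatty acid desaturase, had vehicle levels of 10.19 to 12.06 (median 11.10), against 11.69 to 12.003 in BAY 41-8543 and 11.34 to 11.83 in SD arrays. Its standard deviation was 0.74 in vehicle and 0.10 in BAY 41-8543 (adjusted p = 1.54e-05, limma, and 4.72e-05 with the group median). Ube2ql1, of the ubiquitin conjugating family, had standard deviations of 0.67 and 0.20 (adjusted p = 1.26e-05, limma). Eif4ebp1 had 0.54 and 0.08 (adjusted p = 1.54e-05, limma) and Tinagl1 1.18 and 0.14 (adjusted p = 2.94e-05, limma). Fads2 fell with Hmox1 (r = -0.83, and -0.76 over 6) and Ube2ql1 did not pass (r = -0.61, and -0.44 over 6), so the most spread genes were not all followers. The calcium-activated potassium channel gene Kcnn3 had 0.94 and 0.18 (adjusted p = 1.99e-05, limma) and fell with Hmox1 (r = -0.86, and -0.74 over 6). The calls of Kcnn3, Sync, Efcc1 and Slc39a2 were lost with the group median, at adjusted p of 0.0609, 0.168, 0.0599 and 0.0502 by limma. Without replicates 6 and 7, Kcnn3 and Eif4ebp1 missed the threshold (adjusted p = 0.158 and 0.0633, limma). Of the 6 genes less spread in vehicle, Spint2 had standard deviations of 0.13 in vehicle and 0.44 in BAY 41-8543 (adjusted p = 0.00185, limma), and with the group median 0.327.

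The difference between vehicle and BAY 41-8543 shares the 8 vehicle arrays with the order, so its values are given on their own and lend the order no support. The single followers given below were named from their likeness to Hmox1 in those arrays, so their p-values are descriptions. With all vehicle arrays, limma called 508 genes higher and 617 lower in vehicle than in BAY 41-8543 (4.42% and 5.37%). Without replicates 6 and 7 the counts were 917 and 1148. Leaving out replicate 4 or 5, at the other end of the order, gave 659 and 733 calls in all. Either way 9.79% of genes were called with all arrays. Mt2A differed by 3.08 ± 0.55 log2 units (standard error, adjusted p = 0.000743, limma), Fkbp5 by 1.68 ± 0.30 (adjusted p = 0.000743, limma) and Cebpb by 1.38 ± 0.21 (adjusted p = 0.000422, limma). Aplnr differed by -1.76 ± 0.32 (adjusted p = 0.000939, limma) and Kcnj11 by -0.49 ± 0.13 (adjusted p = 0.0118, limma). Each of these averages sets 2 vehicle hearts at or near treated levels beside 6 outside them. Nppb did not pass, at -0.23 ± 0.21 (adjusted p = 0.574, limma). Against SD 1385 genes were higher and 1346 lower in vehicle (12.1% and 11.7%, or 23.8% either way), and 1510 and 1552 without replicates 6 and 7.

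The BAY 41-8543 and SD arrays were not used for the order and allow a test. Within the 12 BAY 41-8543 arrays, where Hmox1 spans 8.73 to 9.60, limma called 0 genes to follow Hmox1 (0% of 11492, lowest adjusted p = 0.261), with 590 (5.13%) at an unadjusted p under 0.05. Within the 8 SD arrays, where Hmox1 spans 9.05 to 9.57, limma called 0 (0%, lowest adjusted p = 0.939), with 532 (4.63%) unadjusted. Hmox1 spans much less in both groups than in the vehicle arrays (8.78 to 12.11), so 0 calls do not show that no gene follows it. The slope on Hmox1 in BAY 41-8543 arrays was positive for 65.6% of the 471 vehicle risers and 36.8% of the 465 fallers, beside 49.9% of all genes. In SD arrays it was positive for 56.9% of the risers and 51.0% of the fallers, beside 50.1% of all genes. These shares are descriptions, since genes are not independent.

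The vehicle followers were also set against the difference between BAY 41-8543 and SD. No vehicle array enters that difference, but the error estimate behind its p-values includes the vehicle arrays. Over all genes 2001 were called, and 2446 with the vehicle arrays left out of the model. The followers were not counted in that smaller model. Of the 471 risers 54 were higher and 42 lower in BAY 41-8543 than in SD (11.5% and 8.92%), beside 9.54% and 7.87% of all genes (17.4% either way). Of the 465 fallers 69 were higher and 48 lower (14.8% and 10.3%). These shares are near the background in both directions for the risers, and above it in both directions for the 465 fallers. Among the 130 fallers with a vehicle standard deviation of at least 0.5, 16.2% were higher and 5.38% lower, the latter below the background. These 130 were picked for wide vehicle spread, which enters the error estimate, so no conclusion is drawn from that lower share. Reg3b was 4.23 log2 units higher in BAY 41-8543 than in SD (adjusted p = 3.04e-07, limma), and Myot, a sarcomere protein that rose with Hmox1 (r = 0.92, and 0.78 over 6), was 1.47 higher (adjusted p = 0.000135, limma). The flavin enzyme Fmo2 rose with Hmox1 (r = 0.98, and 0.88 over 6) and fell by 0.98 in BAY 41-8543 relative to SD (adjusted p = 0.0275, limma). Kcnd2 fell by 0.77 (adjusted p = 0.00772, limma), as did Kcnj3 by 0.43 (adjusted p = 0.00268, limma) and Ddit4l by 0.75 (adjusted p = 0.0468, limma). Cd93 was 0.45 higher (adjusted p = 0.0339, limma) and Spon2, a secreted matrix protein that fell with Hmox1 (r = -0.93, and -0.75 over 6), 0.87 higher (adjusted p = 0.0251, limma). For Hmox1, Mt2A, Fkbp5, Sik1, Aplnr and Kcnj11 the test between BAY 41-8543 and SD did not pass (adjusted p = 0.674, 0.367, 0.821, 0.982, 0.444 and 0.251, limma). With the vehicle arrays left out of the model, Mt2A was 0.80 higher in BAY 41-8543 than in SD (adjusted p = 0.0153, limma) and Aplnr 0.41 higher (adjusted p = 0.00296, limma). The calls of Ddit4l, Fmo2 and Cd93 lie near the threshold and were lost under another prior, filter or trend, at adjusted p of 0.0526 to 0.0685 (limma).

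The second component of the vehicle arrays (15.9% of variance) did not follow Hmox1 (r = 0.13) and set single hearts apart. Replicate 1 was highest on it, with Fos at 14.18, where the other vehicle arrays had 7.07 to 10.49, and with Klhl40, a muscle protein, at 12.23. Replicate 5 was lowest, with Tgm1, a transglutaminase, at 13.35, where the BAY 41-8543 arrays had 7.23 to 9.03 and the SD arrays 6.64 to 8.23. Liver transcripts, a list added after seeing the data, also varied without Hmox1: albumin (Alb) ran from 6.53 to 13.77 in vehicle, 6.75 to 14.12 in BAY 41-8543 and 5.96 to 13.94 in SD arrays (r = -0.46, and 0.13 over 6). All 3 groups spanned a wide Alb range, and 0 of 13 liver transcripts passed the limit (median r -0.39). With a partial correlation given Alb, an alternative chosen after seeing the data, 607 genes rose and 618 fell with Hmox1, 818 of them shared with the 936 followers. The spread of each array about the gene medians moved with Hmox1 too: the interquartile range was 0.28 to 0.55 in vehicle (r = 0.89, and 0.88 over 6), 0.25 to 0.38 in BAY 41-8543 and 0.35 to 0.43 in SD arrays. Its part in the followers was not tested.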

How the data were processed

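Left ventricle RNA of 28 rats (250 ng each) was hybridised to 1-colour whole transcript arrays. The authors deposited 1 intensity per probe and array, which the submitters' processing notes place under RMA. The RMA version and the scaling are not given in the sources used here. Intensity values as deposited are linear (1.90 to 162208, array medians 99.5 to 107), so log2 was taken. The number of arrays limits the precision. No 2 arrays were identical.

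Of 36685 probes, 14824 carry 1 symbol, 829 several and 21032 none. Probes with a mean log2 above the 30th percentile (5.65) were kept, and the brightest single-symbol probe stood for each of 11493 genes. List genes without such a probe were not analysed here. Likeness is the Pearson r with Hmox1 over 8 vehicle arrays. Differences, absolute deviations (scaled for group size) and slopes on Hmox1 were tested with limma 3.58.1 (R 4.3.3), moderated with an intensity trend, with Benjamini-Hochberg adjusted p-values over all genes, called under 0.05. Distances were compared by exact permutation of arrays. The spread, difference and slope tests were tested on simulated data.

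The order, the members and the gene lists were chosen with earlier results of these data known. Named genes are the 12 highest and 12 lowest r (vehicle SD at least 0.5), the 10 steepest slopes each way, the 8 lowest spread p each way, the 8 most spread genes with r between -0.5 and 0.5, the 3 largest absolute r of each list, the 6 largest loadings each way of the second vehicle component, and a fixed set of genes. Genes called to follow Hmox1 in the other groups would have been named too, and there were 0. The 3 groups share the model, so the wide vehicle spread enters the test between BAY 41-8543 and SD. Genes just inside and outside the limits were named after their values were seen. Alternatives changed the filter, normalization, probes, arrays, trend, prior, groups in the model, array weights, the centre and the measure of likeness or distance.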

Additional observations from a re-analysis of the deposited data

Results flagged for a closer look

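In 14 of 232 groups tested (the genes tracked here and 2 array measures, in vehicle and in SD arrays), 1 array stood apart from the rest of its own group by more than Dixon's 95% limit. Chance flags about 1 in 20 groups. That rate does not apply to genes named for their spread or component loadings in these same vehicle arrays.

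Vehicle replicate 1 stood above the other vehicle hearts in 5 genes. It was also the highest on the second component, whose largest loadings were among the named genes, so these flags are descriptions. The stress-induced transcription factor Atf3 was at 14.64, the next array being at 10.55. Arc, a neuronal immediate early gene, was at 11.80 beside 8.61, Fosb at 10.89 beside 6.90, the orphan receptor Nr4a1 at 13.77 beside 10.96, and Klhl40 at 12.23 beside 9.28. Replicate 1 is sixth in Hmox1 order. None of the 5 genes reached r = 0.8 with all 8 arrays (0.35 to 0.56), and without replicate 1 Atf3 had r = 0.94, Fosb 0.76, Arc 0.75, Nr4a1 0.55 and Klhl40 0.25. Vehicle replicate 5, the highest in Hmox1, stood above the others for the secreted lectin Reg1a (9.67 beside 7.33) and for lipocalin Lcn2 (13.82 beside 12.07). It stood below the others for Ankrd1 (16.15 beside 16.33).

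Among SD rats the arrays that stood apart were low in each case. Replicate 1 had Osmr at 10.05 (next 10.34), and replicate 6 had Fmo2 at 10.89 (next 11.56) and the steroid sulfate transporter Slc10a6 at 7.46 (next 8.31). Replicate 8 had the adrenergic receptor Adra1d at 8.09 (next 8.86), and replicate 2 had Cxcl10 at 7.61 (next 8.44). Replicate 3 had the zinc exporter Slc30a1 at 8.91 (next 9.40).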

How the results depend on the processing

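No paired analysis was possible because the labels give each array its own number, shared by no other group. The number of followers (936) stayed within 1.5 times under every alternative, from 770 to 1329 when 1 vehicle array was left out. The fixed limit on r is easier to pass by chance with fewer arrays, so a steady count is no measure of stability. Which genes followed changed more than their number. Of the 936, 563 were shared with a rank correlation (Spearman rho), 629 without replicate 6, 550 without replicate 7 and 238 without both. Leaving out 1 of the other vehicle arrays kept 837 (without replicate 5) to 936 (without replicate 3). Genes more or less spread in vehicle than in BAY 41-8543 (590) numbered 233 without replicates 6 and 7, 175 with deviations from the group median, 384 with only these groups in the model, and 384 (without replicate 6) to 701 when 1 vehicle array was left out. Against SD (348) the counts were 144, 94 and 89 under the same settings, and 215 (without replicate 7; 223 without replicate 6) to 514 when 1 was left out. Between BAY 41-8543 and SD (18) they were 1 with the group median and 9 with only these groups. Without replicates 6 and 7 the spread difference between vehicle and BAY 41-8543 turned for Per1 (-0.167), Zbtb16 (-0.211) and Adra1d (-0.0156). Genes different between vehicle and BAY 41-8543 (1125) numbered 2065 without replicates 6 and 7, and 659 (without replicate 4) to 1558 when 1 array was left out. Distances differed by 9.44 log2 units between vehicle and BAY 41-8543 and by 5.57 between vehicle and SD, with leave-one-out ranges of 8.60 to 10.7 and 4.73 to 6.86. On a correlation distance the values were -0.0853 and 0.153, and the cause was not tested. Over single genes and settings together, a call between vehicle and BAY 41-8543 was lost 64 times, gained 36 times and unchanged 1930 times. Between BAY 41-8543 and SD it was lost 12 times, gained 36 times and unchanged 965 times. Calls of spread between vehicle and BAY 41-8543 were less stable, with 179 lost, 34 gained, 3 turned and 1814 unchanged, and the limit on r with Hmox1 was lost 96 times, gained 39 times and unchanged 1781 times. No gene was called to follow Hmox1 within BAY 41-8543 or SD arrays (limma) under any alternative run, with 590 and 532 genes at an unadjusted p under 0.05 in the main setting. The narrow Hmox1 range of both groups limits this test. The number of arrays and the clusters of 2 and 6 vehicle hearts limit every statement on the order.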
